A study of Mus musculus with 16 samples.

Results

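The mRNA levels of 10 genes of the p53 response, Cdkn1a, Ccng1, Btg2, Bbc3, Bax, Phlda3, Trp53inp1, Sesn2, Gdf15 and Mdm2, were followed in P19 cells, a mouse embryonal carcinoma line, across 4 conditions. The genes were chosen by name as known targets of p53, with earlier results of these data known, so that the counts of them below are descriptions. Their 13 probes were found by the gene name on the array, 12 of them through a RefSeq accession. All 10 were well above background, among 18326 genes tested. The conditions were a control, transfection of a mimic of the microRNA let-7a, transfection of siSfpq (siRNAs against Sfpq, a nuclear RNA-binding protein), and both together. The methods give 24 nM of siRNA or mimic, a pool of siRNAs against Sfpq, and RNA collected 48 h after transfection. The label of the control says nothing of what it was transfected with. The series asks how Sfpq shapes silencing by let-7a, and the comparisons below ask how the p53 response genes stood under each treatment and under both.

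p53 (the product of Trp53) is a transcription factor that is held low by the ubiquitin ligase Mdm2 and accumulates after DNA damage and other stresses. It binds pairs of a degenerate decamer in the promoters or introns of its targets, whose products stop the cell cycle, start apoptosis, adjust metabolism and feed back on p53 itself. Most of these targets have other activators as well, among them Atf4 in the integrated stress response for Sesn2 and Gdf15. The members fall into arrest genes (Cdkn1a, Ccng1, Btg2), apoptosis genes (Bbc3, Bax), Phlda3, which restrains Akt, genes of the stress response (Trp53inp1, Sesn2, Gdf15) and the feedback gene Mdm2.

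The transfected mature strand is shown with its seed, bases 2 to 8, in capitals, because these bases pair with the targets of let-7a (RefSeq sequence).
mmu-let-7a-5p: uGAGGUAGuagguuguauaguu
To show what the members share in sequence, the p53 decamer consensus (3 purines, C, A or T at 2 positions, G and 3 pyrimidines, which reads alike on both strands) was searched in RefSeq promoter windows of GRCm38.p6 that run from 250 bases before to 50 bases after a gene's start. Of the 10 members, 9 had a window, and Trp53inp1 had none in the table. An exact decamer lay in the windows of 4 of these 9 genes, against 9.55% of all 27025 genes with a window. Pairs of decamers, with at most 2 mismatches together and at most 13 bases between them, lay in 3 of the 9 genes, against 4.71% of all genes. These 3 were Cdkn1a, Ccng1 and Bax. The best pair of Cdkn1a and Ccng1, 1 of 2 equally close pairs of Bax and the exact decamer of Mdm2 are shown on the strand of each gene, with the decamers in capitals.
Cdkn1a, chr17:29090928-29090947, plus strand, 1 mismatch: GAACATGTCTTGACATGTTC
Ccng1, chr11:40755462-40755481, minus strand, 1 mismatch: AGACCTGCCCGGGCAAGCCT
Mdm2, chr10:117710930-117710949, minus strand: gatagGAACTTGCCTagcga
Bax, chr7:45467090-45467114, minus strand, 2 mismatches: TGACAAGCATatcccAGGCAAGCTT
Of these 4 genes Cdkn1a and Ccng1 rose with the combined treatment, whereas Bax, which also held pairs, and Mdm2 did not pass the test in any comparison below that uses all samples without a block. The windows of Sesn2, Bbc3, Phlda3, Gdf15 and Btg2 held neither an exact decamer nor a pair, and all of these but Sesn2 were called in some such comparison. A match of letters is a description and was not tested for binding.

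Levels are log2 values of the background-corrected intensity, quantile normalized between 16 arrays, and can be compared between conditions for a gene but not between genes. On each array, 33733 to 38464 of its 59305 spots stood well above background. Over all probes, arrays 1 and 2 of each condition differed about as little as repeat spots of 1 probe and were averaged into 1 sample, although a single gene could differ more, as Phlda3 did in let-7a. This left 12 samples, 3 per condition. Values of 3 samples are given in the order of replicates 1 and 2, replicate 3, and replicate 4. Replicates 1 and 2 lay on 1 slide and replicates 3 and 4 on the other, so that the changes within a replicate number given below are also changes within a slide. No label says whether the replicates are separate cultures, and p-values then measure only the spread between these samples. Sfpq stood at 12.07, 11.98 and 11.99 in control, between 11.90 and 12.04 in let-7a, 10.56, 11.47 and 10.61 in siSfpq, and 11.31, 11.50 and 11.40 in let-7a + siSfpq. The library labelled siSfpq replicate 3 thus lost less Sfpq mRNA than the others, with a log2 change of -0.51 against -1.51 and -1.37. Among the markers of embryonal carcinoma cells 11 of 12 were above background, all but Zfp42. The probe of Trp53 itself was well above background on 0 of 16 arrays, with log2 values from 1.57 to 3.01, so no level of p53 mRNA is given, and the arrays do not measure p53 protein.

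**Figure D1:**
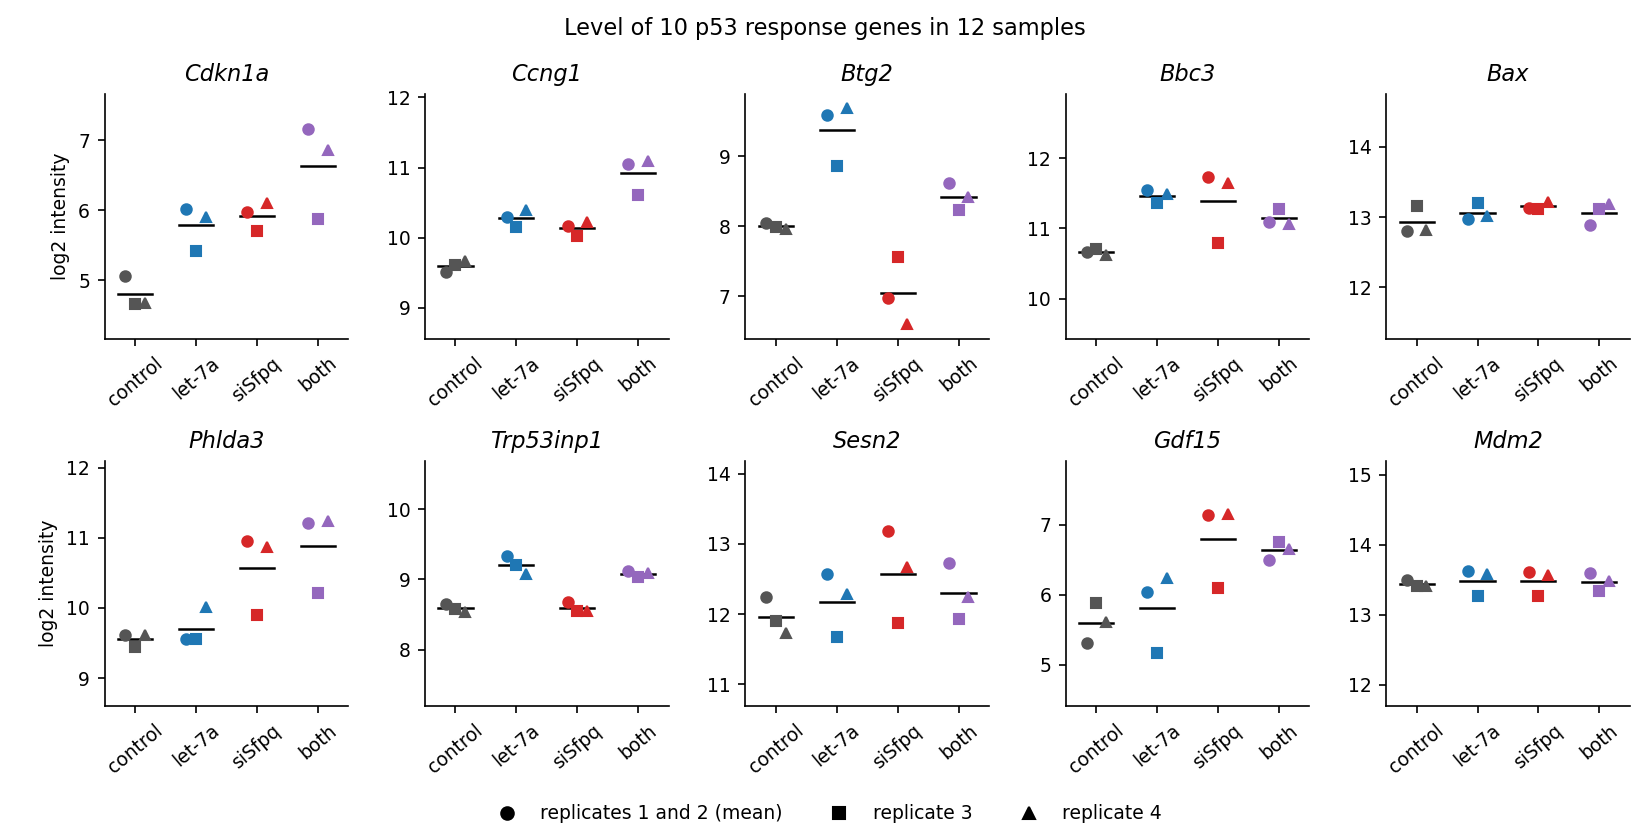
Log2 intensity of each of the 10 genes in control, let-7a, siSfpq and let-7a + siSfpq (both). Points are samples, with the replicate number as the shape and the condition as the colour, lines are means of 3 samples, and each panel spans 3.5 log2 units. Cdkn1a and Ccng1 were highest with both treatments, Btg2 was high with let-7a and low with siSfpq, and Mdm2 and Bax varied little.

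Among the 10 genes, Ccng1, Trp53inp1, Bbc3 and Btg2 rose with let-7a. With siSfpq, Cdkn1a, Ccng1, Bbc3, Phlda3 and Gdf15 rose and Btg2 fell, and with both together Cdkn1a, Ccng1 and Trp53inp1 rose. Each was called at a limma adjusted p under 0.05, adjusted over all genes tested. Thus 4 members rose and 0 fell with let-7a, where 4.89% of all genes rose and 2.02% fell. With siSfpq 5 rose and 1 fell, where 6.3% of all genes rose and 7.31% fell. With let-7a + siSfpq 3 rose and 0 fell, where 1.29% of all genes rose and 0.229% fell. The median log2 change of the 10 was 0.42, 0.58 and 0.49 in these comparisons, beside -0.04, 0.01 and -0.01 over all genes. The 3 comparisons share the control samples. All 10 changes lay above 0 with let-7a and with both, and 9 of 10 with siSfpq, except that the small values of Mdm2 with let-7a and Trp53inp1 with siSfpq fell below 0 after scaling to the 75th percentile and in the authors' table. Of the 10, 6, 4 and 7 did not pass the test.

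Between treatments, 1 member, Ccng1, was higher and 0 were lower when let-7a + siSfpq was set against let-7a alone, where 0.96% of all genes rose and 2.17% fell. Against siSfpq alone, 3 members, Ccng1, Trp53inp1 and Btg2, were higher in let-7a + siSfpq and 0 were lower, where 6.17% rose and 4.12% fell. The interaction, the change with both treatments less the sum of the single changes, was called by limma for 0 members and for 0% of all genes. For 1 member, Bbc3, it had an unadjusted p under 0.05, as for 1157 of 18326 genes. Levels of the 2 groups did not overlap for 5 members with let-7a against control (all higher, as for 15.7% of all genes), 6 with siSfpq (5 higher and 1 lower, as for 15.5% and 14.1%) and 7 with both (all higher, as for 11.1%). With 3 samples against 3, each such member has an exact permutation p of 0.1, the smallest possible.

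Same-numbered samples deviated together, and a fit with the replicate number as a block called more genes. It called 5 members higher with let-7a (11.6% of all genes higher, 10.2% lower), adding Cdkn1a, whose blocked calls here and between treatments rest on a dim probe described below. With siSfpq it called 6 higher and 1 lower (18.4% higher, 19.4% lower), adding Sesn2, and with both it called 4 higher (5.35% higher, 2.79% lower), adding Phlda3. For let-7a + siSfpq against let-7a the block raised the count from 1 to 4, with Cdkn1a and Phlda3 joining Ccng1 as higher and Btg2 as lower (6% of all genes higher, 7.16% lower). For let-7a + siSfpq against siSfpq it called 4 members higher, adding Cdkn1a (17.6% higher, 15.7% lower). No member had a called interaction under the block, where 0.0218% of all genes did. The brightest probe of each gene in place of the mean was a setting added after the data were examined. With it the block called 4 members higher with let-7a, where 2124 of 18326 genes rose and 1807 fell. For let-7a + siSfpq against let-7a it called 2 higher and 1 lower (1111 and 1314 of all genes). Against siSfpq it called 3 higher (3356 higher and 2714 lower of all genes). In each case Cdkn1a was not among them.

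The counts rested on which replicates entered. Over the probes above background, replicate 3 stood apart from the other replicates, also in the conditions without siSfpq. In control its SD from them was 0.210 to 0.235, beside 0.113 and 0.117 between replicate 4 and replicates 1 and 2. In let-7a these were 0.241 to 0.285, beside 0.131 and 0.140. Without replicate 3, in which Sfpq also fell least, limma called 6 members higher with let-7a (15.5% of all genes higher, 14.5% lower). With siSfpq 7 were then called higher and 1 lower (23.8% and 25.4%), and with both 7 higher (10.4% and 7.85%). Likewise it called 3 higher and 2 lower for let-7a + siSfpq against let-7a (13.6% and 13%), and 4 higher and 2 lower for let-7a + siSfpq against siSfpq (24.9% and 22.2%). The interaction was then called for 2 members, Bbc3 and Gdf15, and for 22.3% of all genes. Without replicate 4, or without replicates 1 and 2, limma called 0 members in each of the 6 comparisons, while 4, 1 and 4 members and 5, 3 and 4 members had an unadjusted p under 0.05 with let-7a, siSfpq and both against control. In those fits 2 and 3 genes of all were called with let-7a and 0 in the other comparisons. The share of all genes with an unadjusted p under 0.05 is not given for those fits. With all samples 3807, 5669 and 2161 of 18326 genes reached it with let-7a, siSfpq and both.

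**Figure D2:**
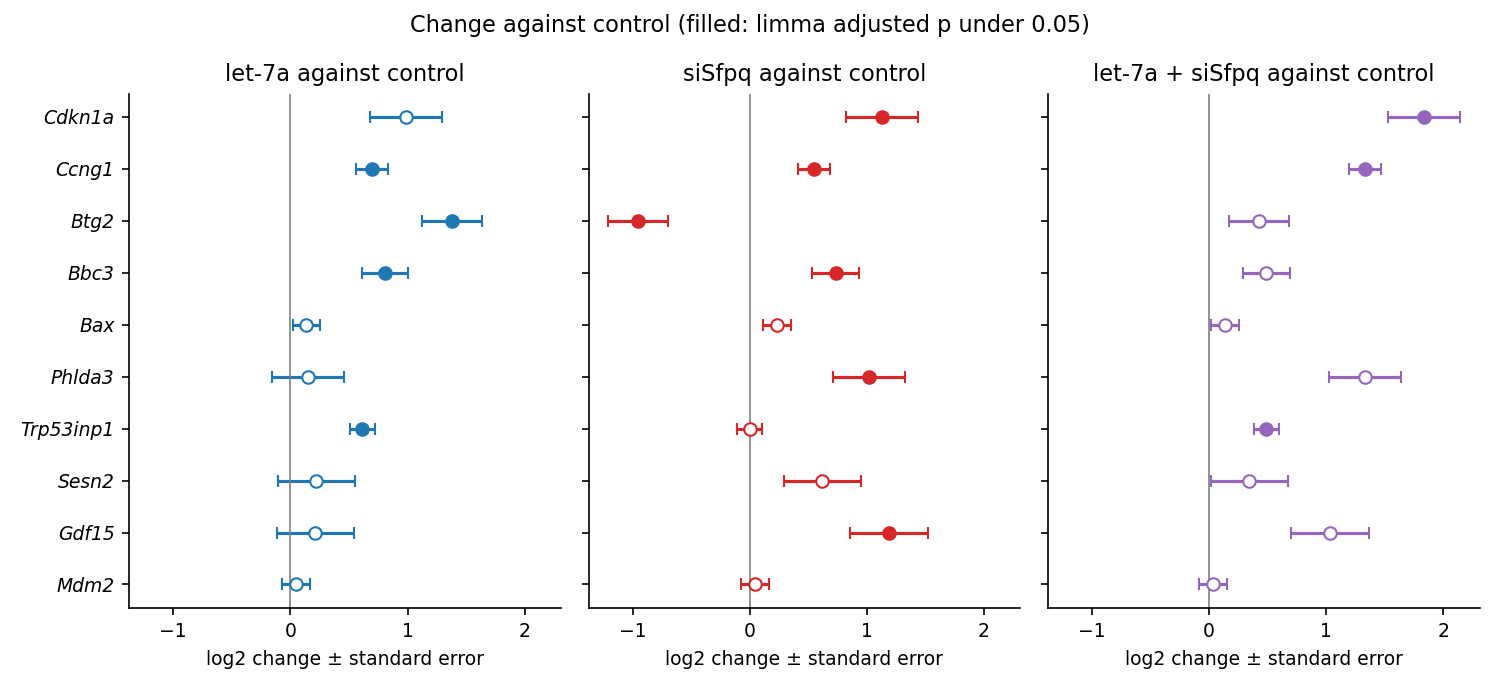
Log2 change against control with its standard error, for let-7a, siSfpq and let-7a + siSfpq (3 samples per condition). Filled points passed a limma adjusted p of 0.05. With both treatments the largest change was that of Cdkn1a, 1.84 (1.72 on the probe above background on every array), and the smallest that of Mdm2, 0.03.

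Among the arrest genes, Cdkn1a encodes p21, an inhibitor of cyclin-dependent kinases and the best known target of p53. Its log2 level was 5.06, 4.67 and 4.68 in control, 6.02, 5.43 and 5.90 in let-7a, 5.97, 5.71 and 6.10 in siSfpq, and 7.16, 5.88 and 6.87 in let-7a + siSfpq. Every treated sample lay above every control sample, and let-7a and siSfpq overlapped each other. With both treatments, 2 of 3 samples lay above all others while replicate 3 lay among the single treatments. Against control the log2 change was 1.13 with siSfpq (standard error 0.31, limma adjusted p = 0.0346) and 1.84 with both (standard error 0.31, limma adjusted p = 0.0146). Part of this size, and the 3 blocked calls that follow, rest on a probe near background in control, described below. With let-7a it was 0.98 (standard error 0.31), with a limma adjusted p of 0.0832, and of 0.00816 under the replicate block. Adding siSfpq to let-7a gave 0.85 (limma adjusted p = 0.177, and 0.0232 under the block), and adding let-7a to siSfpq gave 0.71 (limma adjusted p = 0.156, and 0.0249 under the block).

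These values are the mean of a pair of Cdkn1a probes, named with mm9 coordinates as the array gives them, and no annotation of that build was used here. The probe at chr17:29237377-29237436, spotted 10 times, was above background on all 16 arrays and changed by 0.75, 1.14 and 1.72 with let-7a, siSfpq and both. Its levels were 6.46, 6.71 and 6.52 in control, 7.55, 6.79 and 7.61 in let-7a, 7.60, 7.96 and 7.54 in siSfpq, and 8.78, 7.43 and 8.64 in let-7a + siSfpq. Replicate 3 thus barely differed from control with let-7a on this probe, and was the lowest of the 3 with both. The probe at chr17:29227986-29228045 lies near the start of a transcript variant and was above background on 1, 4, 2 and 4 of the 4 arrays of control, let-7a, siSfpq and both. Its changes against control were 1.21, 1.11 and 1.95, and they rest on control values near background, so no fold is given for Cdkn1a. Taking the brighter probe alone, the limma adjusted p was 0.225 with let-7a, 0.0425 with siSfpq and 0.0291 with both. Under the block it was 0.105 with let-7a, 0.0618 for let-7a + siSfpq against let-7a and 0.157 against siSfpq, so that none of the 3 was called on this probe. Within replicates the brighter probe differed between let-7a + siSfpq and siSfpq by 1.18, -0.53 and 1.10, with the sign turned in replicate 3, and between let-7a and control by 1.09, 0.08 and 1.09. The size depended on the background correction, since a normexp correction gave 0.50 with siSfpq (limma adjusted p = 0.0680) and 0.87 with both (limma adjusted p = 0.0293), and the authors' log2 table gave 0.61 with siSfpq and 1.08 with both (limma adjusted p = 0.0687 and 0.0296). When dim probes were not filtered, which adds a probe near background, neither was called (limma adjusted p = 0.388 and 0.247), and the call with siSfpq was also lost with scaling to the 75th percentile (limma adjusted p = 0.0741) or with only those 2 groups fitted (limma adjusted p = 0.0638).

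Ccng1 encodes cyclin G1, a p53 target that recruits phosphatase to Mdm2. It was the member called in every pairwise comparison fitted, which left out let-7a against siSfpq. Its levels (probe at chr11:40562427-40562486) were 9.51, 9.60 and 9.66 in control, 10.30, 10.15 and 10.40 in let-7a, 10.17, 10.03 and 10.22 in siSfpq, and 11.06, 10.60 and 11.10 in let-7a + siSfpq. No treated sample overlapped the control, and every sample with both treatments lay above every sample with a single one. Its log2 change came to 0.69 with let-7a (standard error 0.14, limma adjusted p = 0.0116), 0.55 with siSfpq (limma adjusted p = 0.0260) and 1.33 with both (limma adjusted p = 0.00110), folds of 1.62, 1.46 and 2.51. Adding siSfpq to let-7a gave 0.63 (limma adjusted p = 0.0318) and adding let-7a to siSfpq gave 0.78 (limma adjusted p = 0.00889). Within replicates the change with let-7a was 0.79, 0.55 and 0.74. Fitted on only the 2 groups compared, Ccng1 passed the test against control with let-7a and with both, but not with siSfpq (limma adjusted p = 0.0659) or between treatments (limma adjusted p = 0.0804 and 0.0760). With no filter on dim probes the change on adding siSfpq to let-7a had a limma adjusted p of 0.0530.

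Btg2 encodes an antiproliferative protein that is induced by p53 and is also expressed in neuronal precursors as they leave the cell cycle. It was the only member called in opposite directions. Its levels (probe at chr1:135972094-135972153) were 8.05, 7.99 and 7.96 in control, 9.59, 8.86 and 9.69 in let-7a, 6.98, 7.57 and 6.60 in siSfpq, and 8.62, 8.23 and 8.41 in let-7a + siSfpq. The 4 conditions did not overlap, in the order siSfpq, control, let-7a + siSfpq and let-7a. Btg2 rose by 1.38 with let-7a (standard error 0.26, limma adjusted p = 0.00862, 2.60-fold). With siSfpq the log2 change was -0.95 (limma adjusted p = 0.0333), and with both it was 0.42 (limma adjusted p = 0.625). Adding siSfpq to let-7a gave -0.96 (limma adjusted p = 0.0689, and 0.0364 under the block), and adding let-7a to siSfpq gave 1.37 (limma adjusted p = 0.0117). The fall with siSfpq did not pass the test with a normexp correction (-0.67, limma adjusted p = 0.0526), with the authors' table (-0.78, limma adjusted p = 0.0573), with no filter on dim probes (limma adjusted p = 0.0685) or with only those 2 groups fitted (limma adjusted p = 0.0847).

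The markers of neurons were set beside Btg2. All 12 of 12 were above background, and the sum of their linear levels ranged from 41343 to 48277 in control, 57115 to 74669 in let-7a, 21737 to 31827 in siSfpq and 37012 to 39825 in let-7a + siSfpq. Of the 12, 8 rose with let-7a (4.89% of all genes), 9 fell with siSfpq (7.31%) and 1 rose with both (1.29%). Their median log2 change was 1.54, -0.996 and 0.20 in these comparisons, beside 1.38, -0.95 and 0.42 for Btg2, and with both treatments 7 of the 12 lay above 0. The sum with both treatments nevertheless lay below every control sample. Their part in the values of Btg2 was not tested. In bulk RNA, a change in the number of cells of a type and a change in RNA per cell cannot be told apart.

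Among the apoptosis genes, Bbc3 encodes Puma, a BH3-only protein that binds the survival members of the Bcl2 family. Its levels (probe at chr7:16903403-16903462) were between 10.62 and 10.70 in control, 11.54, 11.37 and 11.49 in let-7a, 11.73, 10.79 and 11.65 in siSfpq, and 11.10, 11.28 and 11.06 in let-7a + siSfpq. Each treated sample lay above the control, siSfpq replicate 3 by the least, and the samples with both treatments all lay below those with let-7a alone. Bbc3 changed by 0.81 with let-7a (standard error 0.20, limma adjusted p = 0.0328), 0.73 with siSfpq (limma adjusted p = 0.0339), and stood at 0.49 with both (limma adjusted p = 0.342). Without a filter on dim probes the calls with let-7a (limma adjusted p = 0.0646) and siSfpq (limma adjusted p = 0.0689) were lost. The call with siSfpq was also lost when only those 2 groups were fitted (limma adjusted p = 0.124).

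Bax, the pore-forming protein of the mitochondrial outer membrane, did not pass the test. Its levels (probe at chr7:52717122-52717181) ranged from 12.80 to 13.16 in control, 12.97 to 13.20 in let-7a, 13.11 to 13.22 in siSfpq and 12.89 to 13.18 in let-7a + siSfpq, so that all conditions overlapped. The log2 change was 0.14, 0.23 and 0.13 with let-7a, siSfpq and both (standard error 0.12, limma adjusted p = 0.593, 0.206 and 0.791). Without replicate 3 the change with siSfpq was 0.37 (limma adjusted p = 0.0132).

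Phlda3, a PH-domain protein that competes with Akt for membrane lipids, stood high in the samples that received siSfpq. Its levels (probe at chr1:137665642-137665701) were 9.61, 9.45 and 9.61 in control, 9.56, 9.55 and 10.01 in let-7a, 10.95, 9.90 and 10.86 in siSfpq, and 11.21, 10.21 and 11.24 in let-7a + siSfpq. Let-7a overlapped the control, and replicate 3 was the lowest of both groups with siSfpq. The let-7a value of 9.56 is the mean of 10.03 on array 1 and 9.09 on array 2, which differed far more than repeat spots, and the change with let-7a was -0.02 without array 1 of every condition and 0.32 without array 2. On the log2 scale Phlda3 stood at 0.15 with let-7a (standard error 0.31, limma adjusted p = 0.862) and 1.01 with siSfpq (limma adjusted p = 0.0497, 2.02-fold). With both it was 1.33 (limma adjusted p = 0.0632, and 0.00413 under the block), and adding siSfpq to let-7a gave 1.18 (limma adjusted p = 0.0634, and 0.00592 under the block). The call with siSfpq lay at the threshold and was lost, at limma adjusted p from 0.0520 to 0.103, under 7 alternatives besides those that leave out replicate 4 or replicates 1 and 2.

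Trp53inp1 encodes a nuclear and autophagic protein that promotes phosphorylation of p53, and it stood higher in the samples that received let-7a. The levels were 8.66, 8.58 and 8.54 in control, 9.34, 9.20 and 9.08 in let-7a, 8.67, 8.56 and 8.55 in siSfpq, and 9.13, 9.04 and 9.09 in let-7a + siSfpq. The 6 samples with let-7a lay above the 6 without it. Trp53inp1 rose by 0.61 with let-7a (standard error 0.11, limma adjusted p = 0.00650) and by 0.49 for let-7a + siSfpq against siSfpq (limma adjusted p = 0.0208). With both against control it was 0.49 at the threshold (limma adjusted p = 0.0499), and the call was lost, at limma adjusted p from 0.0565 to 0.0771, under 6 alternatives besides those that leave out replicate 4 or replicates 1 and 2. Fitted on only the 2 groups, the change against siSfpq was not called (limma adjusted p = 0.119). With siSfpq it was 0.00 (limma adjusted p = 1.0). The pair of probes, at chr4:11101174-11101233 and chr4:11092530-11092589, gave 0.81 and 0.42 with let-7a and 0.69 and 0.29 with both.

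Sesn2 encodes sestrin 2, which restrains mTORC1, and Gdf15 a secreted stress cytokine. Both are targets of p53 and of Atf4. Sesn2 (probe at chr4:132048858-132048917) stood at 12.25, 11.89 and 11.73 in control, 12.57, 11.67 and 12.28 in let-7a, 13.19, 11.88 and 12.67 in siSfpq, and 12.73, 11.93 and 12.24 in let-7a + siSfpq. All 4 conditions overlapped, and replicate 3 stayed near its control throughout. Its change with siSfpq came to 0.62 (standard error 0.33, limma adjusted p = 0.223, and 0.0153 under the block), made of 0.94, -0.02 and 0.94 within replicates. With let-7a and with both it was 0.22 and 0.34 (limma adjusted p = 0.796 and 0.822).

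Gdf15 (probe at chr8:73153293-73153352) stood at 5.31, 5.88 and 5.61 in control, 6.04, 5.17 and 6.24 in let-7a, 7.13, 6.09 and 7.15 in siSfpq, and 6.49, 6.76 and 6.65 in let-7a + siSfpq. Both groups with siSfpq lay above the control, whereas let-7a overlapped it, with replicate 3 the lowest of all samples. Gdf15 rose by 1.19 with siSfpq (standard error 0.33, limma adjusted p = 0.0368, 2.28-fold) and stood at 1.03 with both (limma adjusted p = 0.187), beside 0.21 with let-7a (limma adjusted p = 0.806). Within replicates the change with siSfpq was 1.82, 0.21 and 1.53. A normexp correction gave 0.67 with siSfpq (limma adjusted p = 0.0324). The call was lost with scaling to the 75th percentile (limma adjusted p = 0.0698), with no filter on dim probes (limma adjusted p = 0.0766) and with only those 2 groups fitted (limma adjusted p = 0.0929). Without replicate 3 the change with let-7a was 0.68 (limma adjusted p = 0.0147).

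Of the mesendoderm markers 7 of 9 were above background, all but Mixl1 and Sox17, and their summed linear level ranged from 1623 to 2182 in control, 766 to 969 in let-7a, 3687 to 7156 in siSfpq and 1132 to 2318 in let-7a + siSfpq. Thus siSfpq held the highest sums and also the highest mean level of Gdf15, and with siSfpq all 7 markers lay above 0, with a median log2 change of 0.81. Of the 7, 1 rose (6.3% of all genes), 4 had an unadjusted p under 0.05 (as did 5669 of 18326 genes, in either direction) and 4 were called higher under the block (18.4%). The 7 fibroblast and smooth muscle markers summed to 9162 to 9429 in control, 8189 to 10853 in let-7a, 12605 to 19316 in siSfpq and 14127 to 16367 in let-7a + siSfpq, so that the sum was higher in both groups with siSfpq. Of these 7, however, 4 lay below 0 with siSfpq, with a median log2 change of -0.32, and 1 was called, and with both 3 lay below 0, with a median of 0.16 and 1 called. Their part in the values of Phlda3 and Gdf15 was not tested.

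Mdm2, the feedback gene, did not pass the test in any comparison. Its levels (probe at chr10:117126010-117126069) ranged from 13.41 to 13.49 in control, 13.27 to 13.62 in let-7a, 13.28 to 13.61 in siSfpq and 13.34 to 13.59 in let-7a + siSfpq, and in each treated group replicate 3 was the lowest sample and lay below the control. The log2 change was 0.05, 0.05 and 0.03 with let-7a, siSfpq and both (standard error 0.12, limma adjusted p = 0.888, 0.839 and 0.973).

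**Figure D3:**
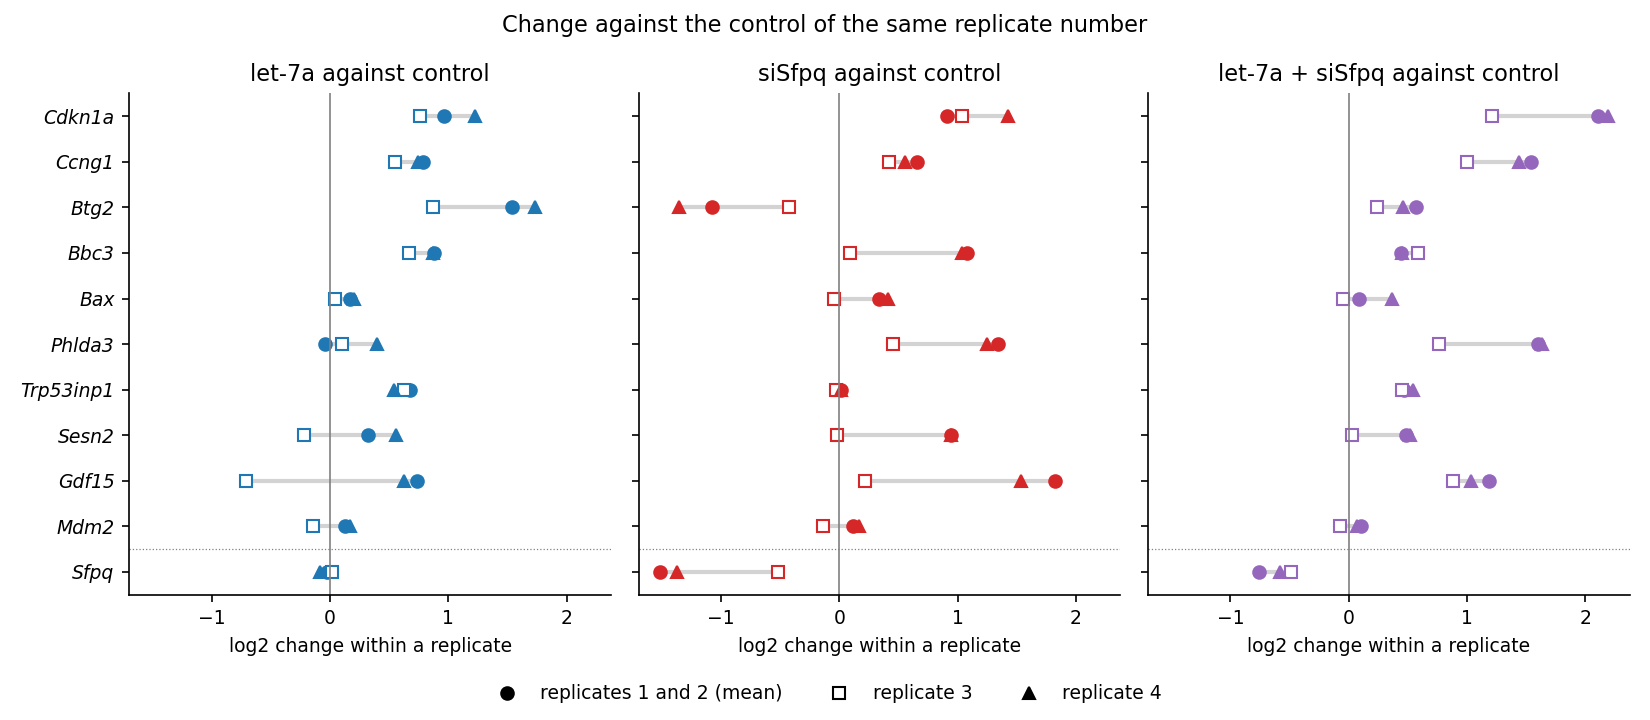
Log2 change of each gene, and of Sfpq below the dotted line, against the control sample of the same replicate number. Open squares are replicate 3, which gave the smallest absolute change for 6, 7 and 8 of the 10 genes with let-7a, siSfpq and both.

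Replicate 3 carried the smaller response of the members in each comparison. Its change was the smallest of the 3 in absolute size for 6 of 10 genes with let-7a, 7 with siSfpq and 8 with both. For Bbc3, Gdf15 and Sesn2 the changes with siSfpq in replicate 3 were 0.09, 0.21 and -0.02, while the others lay between 0.94 and 1.82. Cdkn1a differed from these, with 0.91, 1.04 and 1.43 within replicates with siSfpq. In replicate 3 the change of Sfpq itself with siSfpq was -0.51, and the arrays of replicate 3 also stood apart in control and let-7a. The part of these in the values of the members was not tested.

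Whether the response to both treatments was the sum of the single ones was asked with the interaction. The summed and the measured log2 change were 2.11 and 1.84 for Cdkn1a, 1.24 and 1.33 for Ccng1, 1.17 and 1.33 for Phlda3, and 0.43 and 0.42 for Btg2. For these 4 genes the difference lay within its standard error. On the probe of Cdkn1a that was above background on every array the difference was -0.17 (standard error 0.49). For Trp53inp1 the summed and measured values were 0.61 and 0.49, for Gdf15 1.40 and 1.03, and for Mdm2 0.10 and 0.03, again with differences no larger than their standard errors. The measured change of Sesn2, 0.34, fell short of its sum of 0.84 by a difference of -0.50 (standard error 0.46, limma adjusted p = 0.913), and that of Bax, 0.13, of its sum of 0.37 by -0.23 (standard error 0.17, limma adjusted p = 0.862). Bbc3 was farthest from its sum, with a sum of 1.54 and a measured change of 0.49, a difference of -1.05 (standard error 0.28). It had an unadjusted p of 0.00306 but a limma adjusted p of 0.755, and 0.160 under the block. Within replicates the difference was -1.52, -0.18 and -1.46, and without replicate 3 it was -1.49 with a limma adjusted p of 2.86e-04, where 22.3% of all genes were called. Sfpq itself stood at -1.13 with siSfpq (limma adjusted p = 0.00748) and at -0.61 with let-7a + siSfpq (limma adjusted p = 0.184). These groups overlapped, and set against each other they differed by 0.53 (limma adjusted p = 0.1003, and 0.0384 under the block), made of 0.76, 0.03 and 0.79 within replicates. The interaction of Sfpq had a limma adjusted p of 0.808. The part of Sfpq in the interaction of Bbc3 was not tested. Of the 10 interactions, 8 lay below 0, with a median of -0.18 beside 0.01 over all genes, and the signs of Btg2, Cdkn1a, Mdm2, Gdf15 and Phlda3 turned under some of the alternatives.

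**Figure D4:**
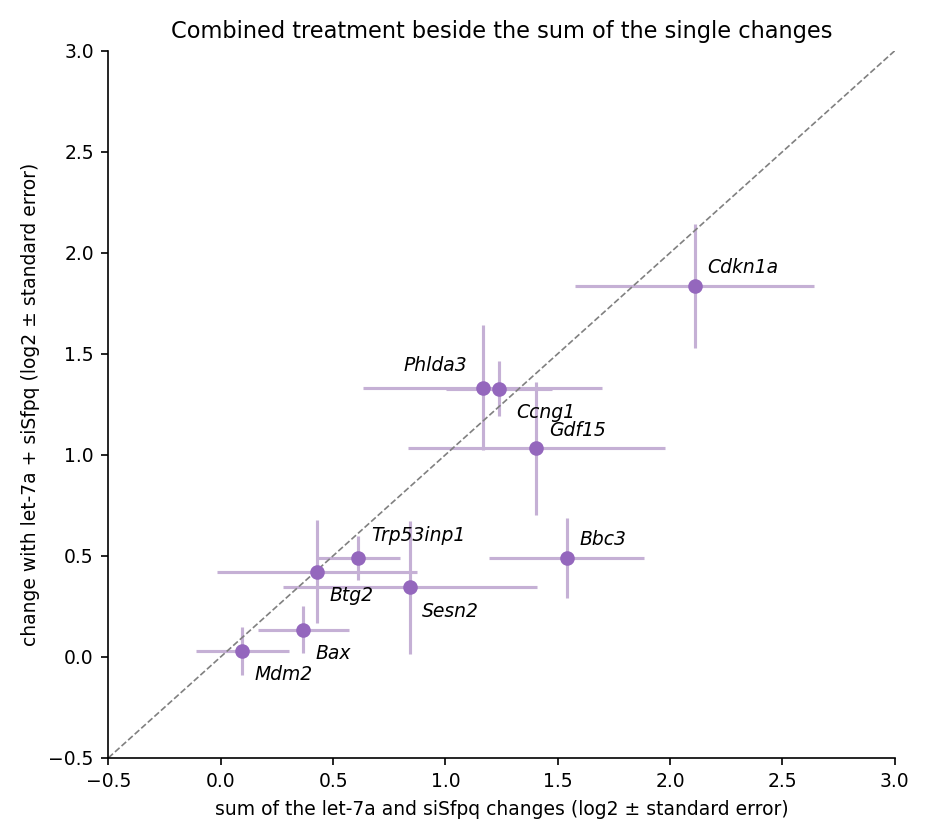
Log2 change with let-7a + siSfpq (vertical axis) against the sum of the changes with let-7a and with siSfpq (horizontal axis) for the 10 genes, each with its standard error. The axes share the control samples, and the dashed line marks equal values. Bbc3, at 1.54 and 0.49, lies farthest from the line.

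Across the 12 samples the levels of the members were compared pair by pair, as a description of samples that share conditions and arrays. The level of Cdkn1a, here and in its ranking below, again included its probe near background in control. Of the 45 pairs, 38 had a Pearson r above 0, with a median of 0.43 and a range from -0.43 for Btg2 and Gdf15 to 0.94 for Cdkn1a and Ccng1. Within conditions, that is after subtraction of each condition's mean, the last pair had an r of 0.82. High values over all samples also joined Sesn2 with Mdm2 (0.86), Cdkn1a with Phlda3 (0.83), Btg2 with Trp53inp1 (0.81) and Phlda3 with Gdf15 (0.80). Within conditions these 4 values were 0.94, 0.76, 0.03 and 0.47, so that Btg2 and Trp53inp1 were alike in their condition means and hardly within conditions. In all, within conditions, 34 of 45 pairs had an r above 0, with a median of 0.23. Among 18325 other genes the pattern of Cdkn1a was most like those of Cpne5 (0.978), Aifm3 (0.967), Ly6c1 (0.963), Tnfsfm13 (0.958) and Tle6 (0.951), as the array names them. Ccng1 ranked 10 among them and Phlda3 109. The remaining members ranked lower, Gdf15 at 743, Sesn2 at 1069, Trp53inp1 at 1338, Bbc3 at 1779, Mdm2 at 2306, Bax at 5479 and Btg2 at 6224.

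**Figure D5:**
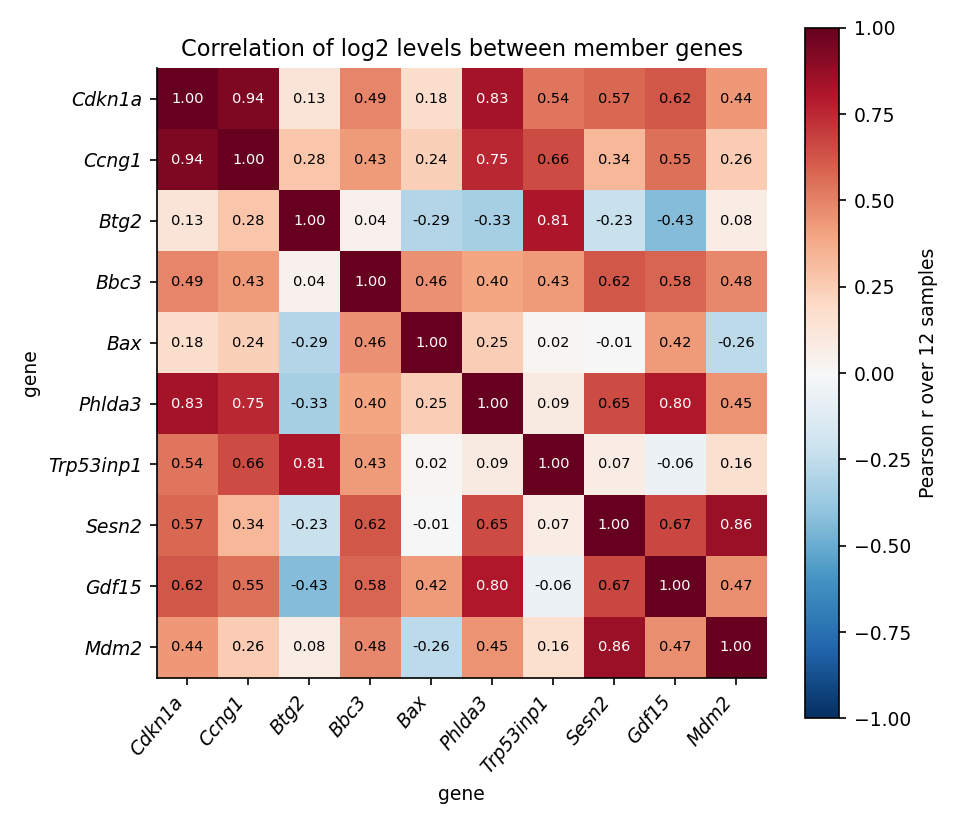
Pearson r of log2 levels between the 10 genes over 12 samples, from blue (-1) to red (1). Cdkn1a and Ccng1 share the highest value, 0.94, and Btg2 and Gdf15 the lowest, -0.43.

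The rest of the pathway was counted in the same way. Of 21 genes of the p53 axis above background (kinases, partners and negative regulators of p53, of 22 listed), 2 rose with let-7a, 0 changed with siSfpq by limma, where 4 had an unadjusted p under 0.05, and 1 rose with both. Over all genes 4.89% rose and 2.02% fell with let-7a, 6.3% and 7.31% under siSfpq, and 1.29% and 0.229% under the combination, and the counts of the lists that follow stand beside the same shares. The 2 were Hipk2, a kinase of p53, at a log2 change of 0.94 (limma adjusted p = 0.0436), and Cdkn2a, which encodes the Mdm2 inhibitor Arf and the kinase inhibitor p16, at 0.32 (limma adjusted p = 0.0459). Cdkn2a was also the gene that rose with both, by 0.45 (limma adjusted p = 0.0268). The median of the list was -0.04, 0.10 and 0.02 with let-7a, siSfpq and both.

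Of 14 other p53 targets of apoptosis above background, of 16 listed, 2 rose with let-7a, 2 rose and 2 fell with siSfpq, and 1 rose with both. Fas, the death receptor, was called in all 3, at log2 changes of 0.95, 1.66 and 1.94 (limma adjusted p = 0.0345, 0.00538 and 0.00287). Trp53i11 rose by 1.30 with let-7a (limma adjusted p = 0.0127). With siSfpq, Perp, a membrane protein of desmosomes, rose by 1.26 (limma adjusted p = 0.0138) and Trp53inp2, an autophagy protein related to Trp53inp1, stood at -1.14 (limma adjusted p = 0.0146). The other gene that fell with siSfpq, Trp53i11, was named after its values were seen, since it lies outside the rule for naming. The list's median was -0.10, 0.03 and 0.08.

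Of 17 p53 targets of arrest, repair and checkpoint, of 18 listed, 1 rose with let-7a, 2 rose and 1 fell with siSfpq, and 0 were called by limma with both, where 2 had an unadjusted p under 0.05. Plk3, a stress-activated kinase, rose by 0.98 with let-7a (limma adjusted p = 0.0237). With siSfpq its relative Plk2 rose by 1.55 (limma adjusted p = 0.0156) and Gtse1, a protein that exports p53 from the nucleus, by 0.94 (limma adjusted p = 0.0404), while the DNA repair gene Mgmt stood at -0.89 (limma adjusted p = 0.00771). The median was -0.01, 0.00 and 0.12.

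Of 22 targets of metabolism, stress and secretion, of 27 listed, 2 rose and 2 fell with let-7a, 1 rose and 1 fell with siSfpq, and 1 rose with both. Ak1, adenylate kinase 1, had the largest change, 1.98 with let-7a (limma adjusted p = 8.48e-04) and 1.62 with both (limma adjusted p = 0.00647). Cpt1c, a carnitine palmitoyltransferase of neurons, rose by 0.72 with let-7a (limma adjusted p = 0.0223) and the receptor Epha2 stood at -0.85 (limma adjusted p = 0.0370). The other gene that fell with let-7a was Tigar, named there after its values were seen. With siSfpq, Tigar, a fructose bisphosphatase, rose by 0.73 (limma adjusted p = 0.00887) and Klhl26 stood at -0.93 (limma adjusted p = 0.0118). The median was 0.07, -0.09 and 0.12, so that none of these 3 target lists had a median as high as that of the 10 members.

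The families of the members were counted too. Of 5 other inhibitors of cyclin-dependent kinases, all listed and measured, 3 rose with let-7a, Cdkn1b by 0.54, Cdkn2b by 0.54 and Cdkn2d by 0.46 (limma adjusted p = 0.0195, 0.0362 and 0.0207). Cdkn1b rose by 0.47 with siSfpq (limma adjusted p = 0.0258) and Cdkn2b by 0.82 with both (limma adjusted p = 0.0140), the 1 called in each, and the list's median was 0.54, 0.09 and 0.22. Of 11 of 12 Bcl2 family genes above background, 2 fell with let-7a, Bok at -0.66 and Bid at -0.48 (limma adjusted p = 0.0438 and 0.0373), both of which promote apoptosis. With siSfpq 3 rose, the BH3-only gene Bik by 0.82 and the survival genes Mcl1 by 0.72 and Bcl2 by 0.68 (limma adjusted p = 0.0472, 0.00553 and 0.0493). With both 1 rose, Mcl1 by 0.58 (limma adjusted p = 0.0202), and the median was 0.09, 0.14 and 0.08. Of 11 paralogs of the members, all measured, 2 rose with let-7a, Phlda1 by 1.09 and Btg1 by 0.92 (limma adjusted p = 0.0203 and 0.0233). With siSfpq 2 rose, Phlda2 by 2.85 and Gdf1 by 0.84 (limma adjusted p = 0.0131 and 0.0444). With both 0 were called by limma, where 1 had an unadjusted p under 0.05, and the median was 0.24, -0.20 and 0.29.

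Because Sesn2 and Gdf15 also answer to Atf4, 16 genes of the integrated stress response, all measured, were set beside them. With siSfpq 5 rose and 0 fell, where 6.3% of all genes rose and 7.31% fell. The replicate block called 13 higher and 0 lower, where it called 18.4% of all genes higher and 19.4% lower. Trib3, a pseudokinase, rose by 1.63, the transcription factor Atf3 by 1.54 and the glutathione-degrading enzyme Chac1 by 1.28 (limma adjusted p = 0.0422, 0.00953 and 0.0356). The other 2, Atf4 itself and the serine synthesis gene Phgdh, were named after their values were seen. The list's median with siSfpq was 0.66, all 16 lay above 0, and the median over all genes was 0.01. With let-7a and with both, 0 were called by limma, 1 had an unadjusted p under 0.05 in each, and the medians were -0.02 and 0.23. For let-7a + siSfpq against siSfpq, 4 fell (Atf3, Psat1, Phgdh and Eif4ebp1, also named after their values were seen), or 9 under the block, with a median of -0.56, where 4.12% of all genes fell, or 15.7% under the block. Over the same comparison Sesn2 stood at -0.28 and Gdf15 at -0.16, neither called (limma adjusted p = 0.632 and 0.805). The part of this response in the values of Sesn2 and Gdf15 was not tested.

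The other marker lists set the background for all of these values. The sum of the 11 embryonal carcinoma markers ranged from 71390 to 81819 in control, 48266 to 65198 in let-7a, 82953 to 92706 in siSfpq and 64814 to 70497 in let-7a + siSfpq. Of these 11, 3 fell with let-7a, 3 rose and 1 fell with siSfpq, and 1 fell with both, with median log2 changes of -0.29, 0.07 and 0.00. With both treatments 6 lay above 0 and 5 below, although the sum lay below every control sample. Extraembryonic endoderm markers, 4 of 6 above background and Afp and Ttr not, ranged from 9221 to 12621 over control, let-7a and siSfpq and from 14053 to 17325 with both. Of these 4, 2 lay above 0 and 2 below with both, with a median log2 change of 0.11, and 0 were called by limma. An unadjusted p under 0.05 was reached by 2 of them, and by 2161 of 18326 genes. Blood and macrophage markers, 3 of 5 with Ptprc and Lyz2 not above background, ranged from 602 to 859 over all samples, and 0 were called by limma with let-7a, siSfpq or both, where 1 had an unadjusted p under 0.05 in each. Their part in the values of the members was not tested.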

How the data were processed

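RNA of P19 cells was labelled with Cy3 and hybridised to Agilent 1-colour arrays, 4 per condition. The authors deposited scanner output, in which intensity is the signal after background subtraction by Agilent Feature Extraction 10.7.3.1, and a log2 table without stated centring, which followed the log2 of the median signal (lowest r 0.9995 per array). The submitters' processing notes name limma. The deposited log2 table served as an alternative. Its column medians lay between 6.05 and 6.06, and 0 of its columns belonged to other samples.

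From the intensity values, log2 was taken, flagged outlier spots left out, and arrays quantile normalized (limma 3.58.1 in R 4.3.3). Genes were named through RefSeq accessions for 28361 of 36776 probes, otherwise as the array names them. A probe was kept if well above background on all 4 arrays of a condition, 42 probes without a value on some array were dropped, and the probes of a gene were averaged, giving 18326 genes. Arrays 1 and 2 of each condition differed, over all probes, with an SD (from the median absolute deviation) of 0.0541 to 0.0712, beside 0.0646 between repeat spots of 1 probe and 0.113 to 0.376 between other replicate pairs, and were averaged. The methods name fewer replicates than arrays were deposited. All 12 samples entered 1 limma fit (lmFit, eBayes with an intensity trend) with Benjamini-Hochberg adjustment over all genes, called at adjusted p under 0.05, and the fit was tested on simulated data.

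Replicate numbers paired the samples: same-numbered samples deviated together in each condition pair (r from 0.285 to 0.708), so blocked values stand beside results they change. The members and gene lists were chosen with earlier results of these data known. Besides the members, up to 3 genes per list and comparison, those called with the largest absolute change, were named. Alternatives covered scaling, normexp (offset 50), filters, probe choice, blocks, the fitted groups and left-out replicates. The number of arrays limits the precision. Probe coordinates are mm9 and promoter windows GRCm38.p6, and no coordinates were converted.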

Additional observations from a re-analysis of the deposited data

Results flagged for a closer look

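The difference made by siSfpq in Bbc3 had opposite signs without and with let-7a in all 3 replicates. Without let-7a, siSfpq replicates lay above control by 1.08, 0.09 and 1.03 on the log2 scale, and with let-7a they lay below let-7a alone, with differences of -0.45, -0.08 and -0.42. The interaction was -1.05, with a limma adjusted p of 0.755, so the difference itself did not pass the test. Over all alternatives its adjusted p ranged from 2.86e-04 to 1.0, and 2 of 16 fits called it. These were the fit that counts arrays 1 and 2 as separate samples and the fit without replicate 3, which called 22.3% of all genes.

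A probe of Cdkn1a that was left out of the gene's level for low signal, at chr17:29235299-29235358 in mm9, was above background on 3 of 4 arrays of let-7a + siSfpq and on 1 of let-7a, but on 0 of control and 0 of siSfpq. Its log2 values were 4.99, 1.70 and 5.06 in let-7a + siSfpq, and 2.80, 1.72 and 3.57 in control.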

How the results depend on the processing

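The replicate number as a block cannot alter a log2 change here, because each replicate number holds a sample of every condition. It raised the members called for let-7a + siSfpq against let-7a from 1 to 4, or to 3 with the brightest probe of each gene as well. It changed counts of other comparisons by at most 1. Counting each of the 16 arrays as a sample takes arrays 1 and 2 as separate, although they differed about as little as repeat spots, so p-values can be too small. It called 5 members higher with both treatments (934 of all genes higher, 501 lower). For let-7a + siSfpq against let-7a it called 3 higher and 1 lower (1196 and 1412 of all genes). For the interaction 1 was called lower (91 of all genes in each direction). With siSfpq 6 members were called, but 3 with normexp correction, 3 with the authors' table, 1 with no filter on dim probes and 0 when only those 2 groups were fitted. For let-7a + siSfpq against let-7a the count was 2 with normexp, 0 with no filter and 0 with only the 2 groups, and against siSfpq it was 0 with only the 2 groups. Leaving out replicates gave from 0 to 6 members called with let-7a, 0 to 8 with siSfpq, 0 to 7 with both, 0 to 5 and 0 to 6 against let-7a and siSfpq, and 0 to 2 for the interaction. The cause was not tested.

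The values that turned direction lay within 0.129 of 0 and were not called where they turned. Mdm2 with let-7a was -0.065 after scaling to the 75th percentile and -0.0075 in the authors' table. Trp53inp1 with siSfpq was -0.032 after that scaling and -0.0089 in the authors' table. The interaction of Btg2 was 0.066 after that scaling and 0.022 over 16 arrays, that of Cdkn1a was 0.038 with no filter, and that of Mdm2 was 0.0042 in the authors' table. On leaving out replicates, the values with let-7a ran from -0.0095 to 0.148 for Mdm2, -0.019 to 0.321 for Phlda3 and -0.044 to 0.677 for Gdf15. With siSfpq they ran from -0.0136 to 0.139 for Mdm2 and -0.0287 to 0.0288 for Trp53inp1, and with both from -0.0038 to 0.0847 for Mdm2. Gdf15 against siSfpq ran from -0.568 to 0.0847, and the interactions of Gdf15 from -1.24 to 0.129, of Btg2 from -0.0617 to 0.0939, of Mdm2 from -0.202 to 0.0342 and of Phlda3 from -0.0049 to 0.339.

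Over all genes, 896 rose and 370 fell with let-7a, but 2120 and 1872 under the block and 1973 and 1652 over 16 arrays. With siSfpq 1154 rose and 1340 fell, but 3380 and 3548 under the block, 3239 and 3345 over 16 arrays, and 0 with only the 2 groups. With both, 236 rose and 42 fell, but 980 and 512 under the block and 934 and 501 over 16 arrays. Against let-7a, 176 rose and 398 fell, but 1100 and 1313 under the block and 1196 and 1412 over 16 arrays. Against siSfpq, 1131 rose and 755 fell, but 3226 and 2882 under the block, 3109 and 2820 over 16 arrays, and 200 and 21 with only the 2 groups. With no filter on dim probes 702 rose and 812 fell with siSfpq, 161 and 20 with both, 92 and 217 against let-7a and 653 and 385 against siSfpq. The interaction was called for 0 genes, but for 5 with no filter and for 91 in each direction over 16 arrays. Named genes of the wider lists, whose settings were added after the data were examined, kept their direction throughout, and none of their 37 values passed the test without replicate 4 or without replicates 1 and 2. Signal over background limits Trp53 and the dimmer probes of Cdkn1a.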
